A study of Mus musculus with 9 samples.

Results

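The 10 genes described here serve the MHC class I presentation pathway: B2m, H2-K1, H2-D1, H2-T23, Tap1, Tap2, Tapbp, Nlrc5, Erap1 and Cd1d1. They were chosen by symbol for their known roles in the pathway, with earlier results of these data known. All 10 were found among the 24054 genes listed in the files and among the 14452 genes with enough reads to be tested. The libraries come from type 2 conventional dendritic cells (cDC2) of the mouse spleen and form 3 groups of 3 libraries, which the study compared to ask whether age or developmental origin sets the gene expression of these cells. TOM+ cDC2 and TOM- DC2 were taken from mice of 8 days (postnatal day 8), and TOM+ cDC2 were also taken from adult mice, of 9 weeks for 1 library and 8 weeks for the other libraries. All mice were C57BL/6 of the genotype Clec9a-Cre/Cre Rosa-tdTomato/tdTomato, so all groups share these alleles. In these mice Cre under the control of Clec9a switches on the fluorescent protein TOMATO, and a TOM+ cell is one with a history of Clec9a expression in itself or its precursors. Because some precursors escape labeling, a TOM- cell is not proven to lack that history. The study addressed such escape with homozygous Cre mice, a second reporter (YFP) and culture, in which sorted TOM- cells stayed negative. It also found more labeling in splenic precursors (pre-cDCs) than in cDC2 of the same young mice. It proposes that TOM- cells come from progenitors that do not express Clec9a. All cells were live, single, negative for autofluorescence and positive for CD11c, MHCII and CD11b, and young spleens were combined for sorting. The sources used here do not tie each library to an animal or pool, so p-values measure the spread between these libraries only.

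MHC class I molecules show peptides from inside the cell to CD8 T cells and are present on nearly all nucleated cells. A heavy chain pairs with beta-2-microglobulin in the endoplasmic reticulum, where the TAP transporter delivers peptides made by the proteasome, tapasin helps to load them and ERAP1 trims them to length. The transactivator NLRC5 drives transcription of most of these genes, and dendritic cells use the same machinery to present antigens to naive T cells.

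Levels are the authors' TPM (transcript abundance relative to the library total, corrected for gene length), given in the order of libraries 1, 2 and 3 of a group. Differences are log2 fold changes (log2FC) between groups from edgeR's quasi-likelihood test on reads counted per gene, each followed by its standard error (SE) and by the p adjusted by Benjamini-Hochberg over all genes tested (padj). The SE was calculated from the log2FC and the F statistic. A padj under 0.05 was taken as a difference, and a padj under 0.05 with a log2FC beyond 1 in either direction as a call by the thresholds of the study.

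Gene counts per library ranged from 12783252 to 22809401. All 10 cDC2 markers examined were present at 1 TPM or more in libraries of every group, and their summed level was 61571 to 65769 TPM in young TOM+ cDC2, 58628 to 63454 TPM in young TOM- DC2 and 92464 to 95471 TPM in adults. Nearly all of that sum is the class II genes Cd74 and H2-Ab1. Other cDC2 markers moved in both directions between young and adult TOM+ cDC2: Itgam (log2FC -0.78, padj = 0.00012) and Sirpa (-0.56, padj = 0.00025) were lower in adults, and Esam (2.21, padj = 7.2e-06) was higher. The summed level of 7 B cell markers was 106 to 157 TPM in young TOM+ cDC2, 121 to 183 TPM in young TOM- DC2 and 173 to 180.3 TPM in adults, while the defining B cell genes Cd79a and Pax5 did not exceed 1.59 TPM in any library. Neutrophil markers summed to 17.3 TPM and erythroid markers to 1173 TPM in 1 library of young TOM- DC2, the highest of all libraries. Without that library 0 of the 10 genes passed between the young groups and 9 passed between adults and TOM- DC2, the same counts as with it. ILC3 markers summed to 27.2 to 35.4 TPM in young TOM- DC2 and to at most 5.54 TPM in the other groups. Macrophage markers summed to 330.2 to 362 TPM in young TOM+ cDC2, 422 to 468 TPM in young TOM- DC2 and 256 to 314 TPM in adults, and monocyte markers to 34.4 to 48.8, 20.4 to 28.8 and 17.5 to 19.5 TPM. Reads on no annotated feature were 8.84% to 11.8% of all reads in young TOM+ cDC2, 10.7% to 12.83% in young TOM- DC2 and 15.2% to 17.1% in adults. The part of these markers and reads in the results below was not tested, and in sorted bulk samples fewer cells of a type and less RNA per cell cannot be told apart.

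Adult TOM+ cDC2 had more RNA of most of these 10 genes than TOM+ cDC2 of 8-day-old mice. Of the 10 genes, 8 were higher in adults (padj under 0.05), against 19.5% of all genes tested that were higher and 21% that were lower. Because the 10 genes were chosen with earlier results of these data known, such counts and shares are descriptions, here and below. The steps were unequal: the regulator Nlrc5 rose 4.17-fold and the heavy chains H2-K1, H2-D1 and H2-T23 between 2.13-fold and 2.93-fold, whereas B2m, Tap1 and Tapbp rose between 1.54-fold and 1.72-fold and Tap2 rose 1.28-fold. In the same 8 genes the TPM of all adult libraries exceeded those of all young TOM+ libraries, as in 17.4% of all genes tested. Erap1 and Cd1d1 did not pass the test. By both thresholds 4 of 10 were called higher (6.86% of all genes tested), namely Nlrc5, H2-K1, H2-D1 and H2-T23. The median log2FC of the 10 genes was 0.71, and that of all genes tested was -0.05. When libraries were scaled by their totals alone the median of all genes moved to -0.25, 1828 genes were higher and 4790 lower in place of 2822 and 3039, and H2-T23 fell short of the fold threshold with a log2FC of 0.89.

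**Figure D1:**
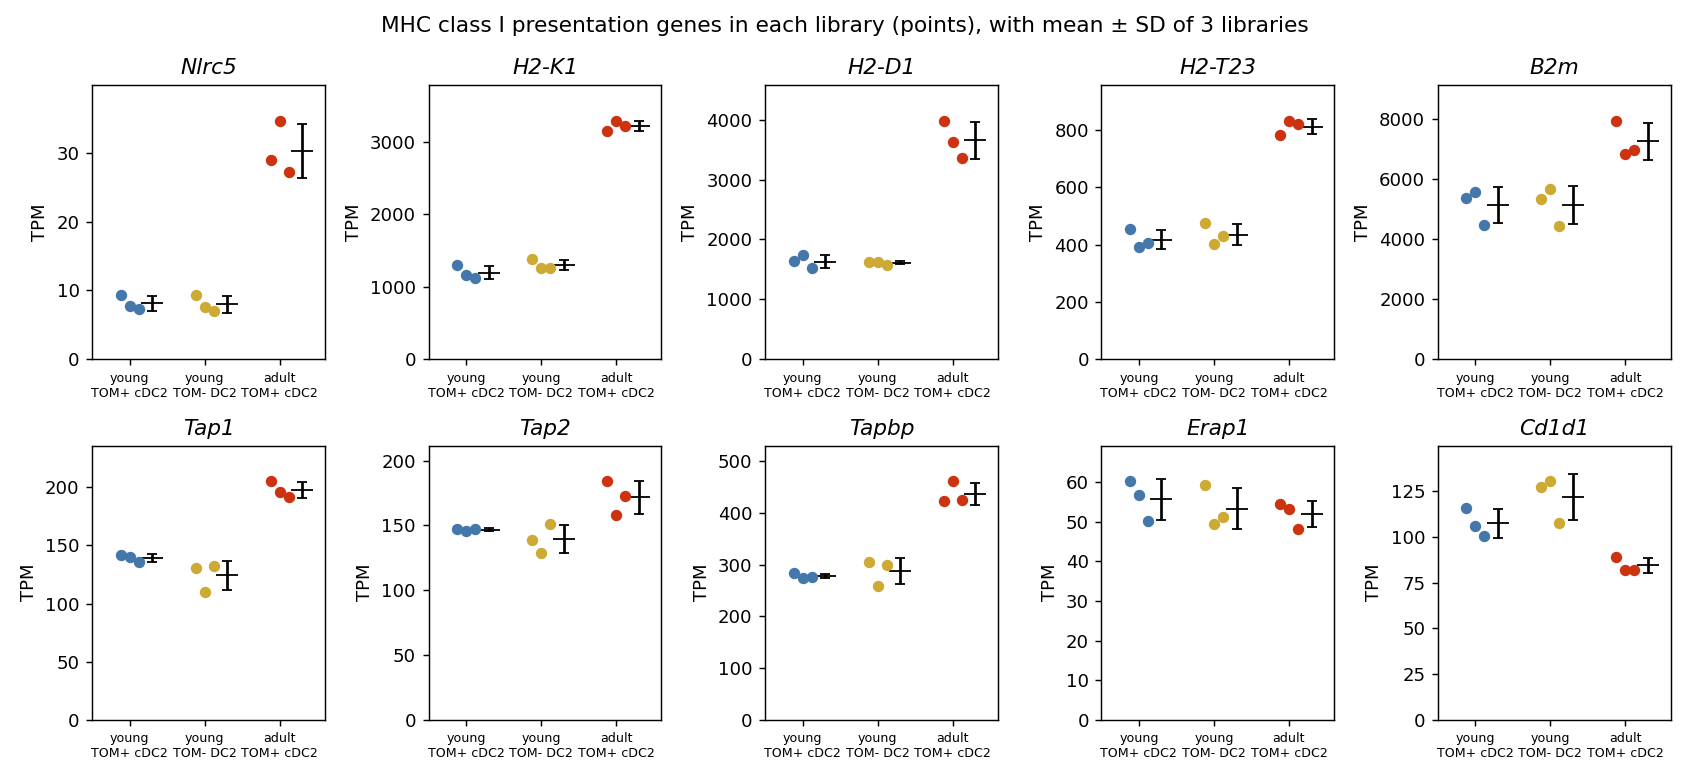
TPM (vertical axes, each from 0) of the 10 class I presentation genes in the 9 libraries; points are libraries, and the line with bars is the mean ± SD of 3 libraries. In 8 panels all adult points lie above all points of young TOM+ cDC2, Erap1 overlaps in all groups, and adult Cd1d1 lies below both young groups.

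Nlrc5 encodes the transactivator of class I genes and was the least abundant member in every group. Its level was 9.37, 7.70 and 7.29 TPM in young TOM+ cDC2, 9.38, 7.59 and 6.96 TPM in young TOM- DC2, and 29.0, 34.7 and 27.2 TPM in adults. All adult libraries lay above all young ones, and the young groups overlapped. The difference between adult and young TOM+ cDC2 was 2.06 on the log2 scale (SE 0.13, padj = 4.8e-07), the largest of the 10 genes.

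H2-K1 encodes the heavy chain of the classical molecule H-2K. It was measured at 1301, 1163 and 1126 TPM in young TOM+ cDC2, at 1382, 1260.2 and 1260.1 TPM in young TOM- DC2, and at 3161, 3298 and 3219 TPM in adults. Adult libraries were separate from both young groups, which overlapped each other. The log2FC with age was 1.55 (SE 0.07, padj = 6.0e-08).

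H2-D1, the gene of the second classical heavy chain, H-2D, was measured at 1633, 1742 and 1514 TPM in young TOM+ cDC2, at 1624, 1619 and 1579 TPM in young TOM- DC2 and at 3986, 3625 and 3356 TPM in adults. Again the adult libraries stood above all young ones. The log2FC with age was 1.27 (SE 0.10, padj = 2.4e-06).

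H2-T23 encodes Qa-1, a nonclassical molecule that presents leader peptides of other class I chains and is recognized by NKG2 receptors. Its level was 454, 392 and 404 TPM in young TOM+ cDC2, 474, 401 and 428 TPM in young TOM- DC2, and 783, 833 and 820.3 TPM in adults. The lowest adult library exceeded the highest young library, and the log2FC with age was 1.09 (SE 0.08, padj = 1.0e-06).

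B2m, the light chain shared by all these molecules, was the most abundant member in every group. It was found at 5385, 5587 and 4463 TPM in young TOM+ cDC2, at 5332, 5678 and 4431 TPM in young TOM- DC2 and at 7957, 6844 and 6987 TPM in adults. Libraries 3 of both young groups were lowest, and no adult library overlapped a young one. The log2FC with age was 0.63 (SE 0.11, padj = 0.00096), below that of each of the 3 heavy chains.

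Tap1 and Tap2 encode the subunits of the peptide transporter. Tap1 was at 142, 140.0 and 135 TPM in young TOM+ cDC2, at 131, 110.1 and 132 TPM in young TOM- DC2 and at 205, 196 and 192 TPM in adults, and its log2FC with age was 0.64 (SE 0.09, padj = 9.0e-05). Tap2 was at 147, 145 and 147 TPM, at 139, 129 and 151 TPM and at 184, 158 and 173 TPM in the same order of groups, with a log2FC with age of 0.36 (SE 0.09, padj = 0.0082). All adult libraries exceeded the young ones for both subunits, though for Tap2 the lowest adult library lay only slightly above the highest TOM- library. The Tap2 difference no longer passed when libraries were scaled by their totals alone (log2FC 0.16, padj = 0.15).

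Tapbp encodes tapasin, which bridges TAP and the empty class I molecule. Its level was 283, 275 and 276 TPM in young TOM+ cDC2, 305, 259 and 300.01 TPM in young TOM- DC2, and 423, 461 and 426 TPM in adults. The adult libraries were separate from the young ones, and the log2FC with age was 0.78 (SE 0.08, padj = 1.8e-05).

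Erap1, the aminopeptidase that trims peptides in the endoplasmic reticulum, was at 60.2, 56.8 and 50.1 TPM in young TOM+ cDC2, at 59.2, 49.5 and 51.3 TPM in young TOM- DC2 and at 54.4, 53.2 and 48.2 TPM in adults. The 3 groups overlapped. The log2FC with age was 0.03 (SE 0.09, padj = 0.82), and its sign changed with the scaling, to -0.17 (padj = 0.15) with library totals alone.

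Cd1d1 encodes CD1d, a class I-like molecule that pairs with B2m but presents lipids to NKT cells and does not use TAP. It was at 116, 106 and 100.3 TPM in young TOM+ cDC2, at 128, 130.4 and 108 TPM in young TOM- DC2 and at 89.1, 82.0 and 82.1 TPM in adults. Adult libraries lay below all young libraries, yet the log2FC with age of -0.21 (SE 0.10, padj = 0.10) did not pass the test. With library totals alone it was -0.41 (padj = 0.0051), and with limma on log2(TPM + 1) it was -0.34 (padj = 0.012), so the call for Cd1d1 depended on the scaling.

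Between the young groups, which share age and sort but differ in the TOMATO label, no member passed the test. The count was 0 of 10 by edgeR with padj under 0.05, against 1.6% of all genes tested, and 0 of 10 by both thresholds, against 1.18%. DESeq2 and limma also gave 0 of 10, and at an unadjusted p under 0.05 edgeR and DESeq2 each gave 1 of 10 (Tap1) and limma on log2(TPM + 1) none, against 9.38% of all genes tested by edgeR, 8.67% by DESeq2 and 8.88% by limma. The log2FC of TOM- DC2 minus TOM+ cDC2 lay between -0.20 for Tap1 (SE 0.08, padj = 0.44) and 0.16 for Cd1d1 (SE 0.10, padj = 0.69). For Tap1 alone the TPM of both groups did not overlap, a separation seen in 14.4% of all genes tested. For the 3 heavy chains the log2FC was 0.09 for H2-K1 (SE 0.07), -0.05 for H2-D1 (SE 0.10) and 0.01 for H2-T23 (SE 0.08), and for Nlrc5 it was -0.05 (SE 0.13).

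The young libraries carry the same numbers in both groups, and libraries with the same number deviated together, so the fit with the number as a replicate block was also considered. With the block on the young libraries alone Tap1 was lower in TOM- DC2 (log2FC -0.21, SE 0.05, padj = 0.0071) and was the 1 member to pass, against 11.8% of all genes tested in that fit, so that 1 of 10 is near the background. With the block on all 9 libraries Tap1 had a padj of 0.063 and no member passed, against 6.57% of all genes. TOM- DC2 library 2 held the lowest Tap1 level of all libraries.

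**Figure D2:**
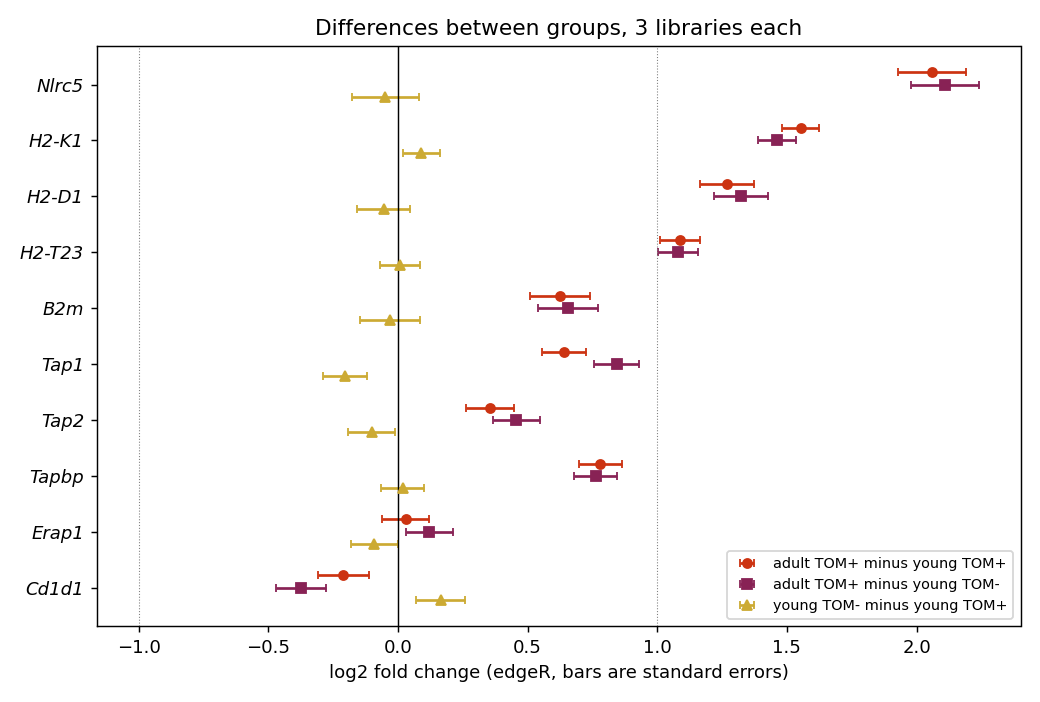
Log2 fold changes (horizontal axis) with standard errors from edgeR for each gene in the 3 comparisons of 3 libraries each; dotted lines mark a log2FC of 1 in either direction. Both comparisons with adults place Nlrc5 and the heavy chains H2-K1, H2-D1 and H2-T23 beyond 1, and all values between the young groups lie from -0.20 to 0.16.

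Adult TOM+ cDC2 were also set against young TOM- DC2, so that both age and the TOMATO label differ. This comparison uses the same adult libraries as the first, and its values are therefore given side by side with those above and are not a second measurement. Higher in adults were 8 of 10 members (16.9% of all genes tested) and lower was 1 (19.4%), and by both thresholds 4 of 10 were called higher (4.78%). The log2FC was 2.11 for Nlrc5 (SE 0.13), 1.46 for H2-K1 (SE 0.07), 1.32 for H2-D1 (SE 0.10) and 1.08 for H2-T23 (SE 0.08). It was 0.84 for Tap1 (SE 0.09), 0.76 for Tapbp (SE 0.08), 0.66 for B2m (SE 0.11) and 0.46 for Tap2 (SE 0.09), with padj of 0.0020 or less for these 8 genes. Cd1d1 fell by 0.37 on the log2 scale (SE 0.10, padj = 0.0095), and Erap1 had a log2FC of 0.12 (SE 0.09, padj = 0.32).

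The order of TPM levels was B2m, H2-D1, H2-K1, H2-T23 and Tapbp in all 3 groups, followed by the TAP subunits, Cd1d1, Erap1 and Nlrc5. Tap2 stood above Tap1 in both young groups and Tap1 above Tap2 in adults. The ranges of neighbours did not overlap in young TOM+ cDC2 or in adults, whereas in young TOM- DC2 Tap2 overlapped Tap1 and Tap1 overlapped Cd1d1. Together the 10 genes held 0.822% to 0.961% of all TPM in young TOM+ cDC2, 0.845% to 0.964% in young TOM- DC2 and 1.53% to 1.69% in adults.

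Ratios of 2 genes within a library do not depend on how libraries are scaled against each other. The pairs were chosen after the levels had been seen, and 6 ratios were compared between 3 pairs of groups by an exact two-sided permutation test, for which 0.1 is the smallest p that 3 libraries against 3 allow. The ratio of H2-K1 to B2m was 0.242, 0.208 and 0.252 in young TOM+ cDC2 and 0.397, 0.482 and 0.461 in adults (exact permutation p = 0.1, 0.164 after adjustment over 18 comparisons). For H2-D1 to B2m the mean rose from 0.318 ± 0.0188 (SD, n = 3) to 0.504 ± 0.0248, and for H2-T23 to B2m from 0.0817 ± 0.0104 to 0.112 ± 0.0124, with the same exact p. In all 3 ratios every adult library exceeded every young TOM+ library. None of these tests could pass 0.05, and other pairs of genes were not examined for comparison, so the ratios are descriptions.

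The ratio of Tap1 to Tap2 was 0.962, 0.963 and 0.922 in young TOM+ cDC2, 0.942, 0.854 and 0.875 in young TOM- DC2 and 1.12, 1.24 and 1.11 in adults. Adults were separate from young TOM+ cDC2 (exact permutation p = 0.1, adjusted 0.164), while the young groups overlapped (exact permutation p = 0.2, adjusted 0.3). Tap1 lies beside Psmb9, a subunit of the immunoproteasome, and their ratio was 0.288 ± 0.0223 (SD, n = 3) in young TOM+ cDC2 and 0.303 ± 0.00474 in adults (exact permutation p = 0.4), with overlapping libraries. Tap2 lies beside Psmb8, another subunit, and here the ratio was 0.181 ± 0.00472 in young TOM+ cDC2 and 0.249 ± 0.0113 in adults (exact permutation p = 0.1, adjusted 0.164).

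**Figure D3:**
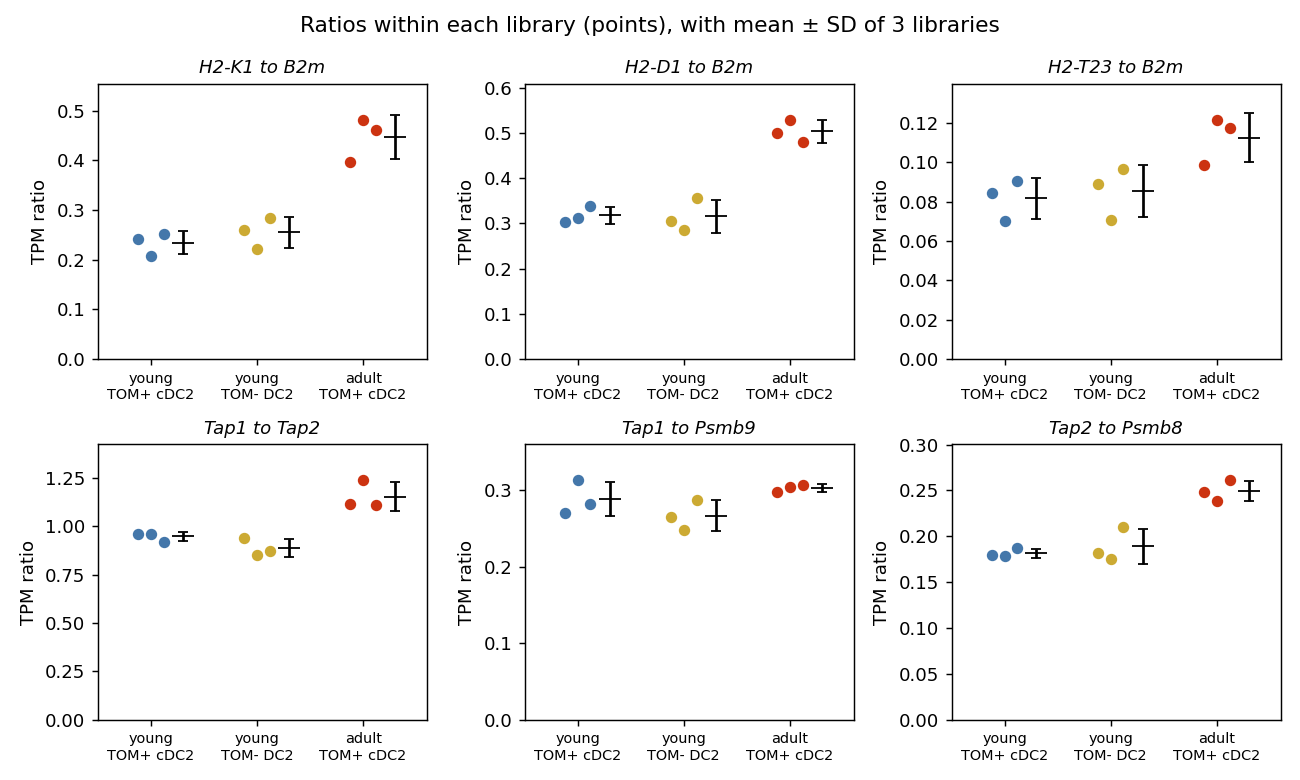
Ratios of TPM (vertical axes, each from 0) of 2 genes within each of the 9 libraries; points are libraries, and the line with bars is the mean ± SD of 3 libraries. The adult points lie above those of young TOM+ cDC2 for each heavy chain over B2m, for Tap1 over Tap2 and for Tap2 over Psmb8, and overlap them for Tap1 over Psmb9.

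The promoters of members are shown because most of these genes moved together with age. RefSeq windows of 250 bases before to 50 bases after the start, on GRCm38.p6, the assembly behind mm10, were matched for 7 of the 10 genes, and H2-K1 and Erap1 are printed as the members with the largest and the smallest log2FC with age among them, with Tap1 as the member with the largest difference between the young groups. Printed are the 250 bases before the start, in the direction of transcription, with capitals for matches to 4 short motifs searched on both strands: GAAANNGAA (a core shared by interferon-stimulated response elements), TTCNNNGAA (the core of gamma-activated sites), CCAAT (bound by NF-Y) and TGACG (a core bound by CREB and ATF factors, as in the X2 box of MHC promoters). A match that extends past the start is shown up to it. H2-K1 spans chr17:33996012-34000619 on the minus strand and its printed stretch is chr17:34000348-34000597, the first of the windows listed for it. Tap1 spans chr17:34187556-34197225 on the plus strand, with chr17:34187306-34187555 printed, and Erap1 spans chr13:74639573-74693205 on the plus strand, with chr13:74639603-74639852 printed. For H2-K1 and Erap1 the start used by the window lies inside the span of the gene, so the printed bases do too.
H2-K1: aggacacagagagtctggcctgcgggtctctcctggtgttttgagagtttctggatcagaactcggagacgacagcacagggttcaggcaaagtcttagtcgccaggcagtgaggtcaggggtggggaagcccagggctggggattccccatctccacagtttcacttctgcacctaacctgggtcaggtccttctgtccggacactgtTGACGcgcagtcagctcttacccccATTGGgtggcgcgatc
Tap1: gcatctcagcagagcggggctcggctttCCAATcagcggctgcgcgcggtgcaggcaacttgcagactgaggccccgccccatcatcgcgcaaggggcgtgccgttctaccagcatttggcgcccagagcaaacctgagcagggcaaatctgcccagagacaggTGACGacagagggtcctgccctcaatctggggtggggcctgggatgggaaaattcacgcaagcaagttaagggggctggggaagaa
Erap1: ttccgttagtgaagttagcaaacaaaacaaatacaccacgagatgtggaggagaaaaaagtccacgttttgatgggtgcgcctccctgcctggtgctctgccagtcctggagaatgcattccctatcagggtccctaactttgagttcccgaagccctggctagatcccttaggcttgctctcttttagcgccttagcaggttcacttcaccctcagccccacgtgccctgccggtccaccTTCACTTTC

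CCAAT or its reverse was found in 6 of the 7 windows (B2m, H2-K1, H2-D1, H2-T23, Tap1 and Tapbp), against 37.9% of 27025 promoter windows of the same length. TGACG or its reverse was in 4 (B2m, H2-K1, H2-D1 and Tap1), against 21.0%. In H2-K1 the TGACG begins 41 bases before the start and ATTGG, the reverse of CCAAT, begins 16 bases before it. In H2-D1 the same arrangement begins 101 and 76 bases before the start, with equal spacing in both classical heavy chains. GAAANNGAA matched in B2m, H2-T23 and Erap1, against 8.57% of windows, and Erap1 holds 2 overlapping matches at its start. Only exact matches to this pattern were counted. The H2-K1 stretch holds tttcacttc, printed in lower case, which the pattern cannot match. A window without a match may therefore still hold a related sequence. TTCNNNGAA was in none of the 7, against 8.47%. These matches are descriptions of letters in the windows and not of binding. The starts of Tap1 and Psmb9 lie 226 bases apart on opposite strands, and 275 bases of their windows are shared.

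The other members lie at the following positions of the same assembly. Tapbp (chr17:33919478-33929290), Tap2 (chr17:34204479-34216321), H2-D1 (chr17:35263094-35267497) and H2-T23 (chr17:36029977-36032701) lie on chromosome 17 with H2-K1 and Tap1. B2m lies at chr2:122147687-122153082, Nlrc5 at chr8:94434335-94527272 and Cd1d1 at chr3:86995834-87012358.

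Near-identical class I genes share reads, and the test counted only reads that STAR placed at a single position, whereas RSEM divides shared reads. Reads that STAR listed as ambiguous, 0.849% to 0.969% of all reads, were not counted either. STAR counts were 31.7% to 33.0% of RSEM's reads for H2-D1, 69.0% to 71.2% for Cd1d1, 76.1% to 78.3% for H2-T23 and 96.4% to 97.4% for H2-K1 across the 9 libraries. The other members had at least 101% and at most 109%. Tested on RSEM's expected counts, the log2FC with age was 1.33 for H2-D1 (SE 0.09, padj = 1.4e-06), 1.12 for H2-T23 (SE 0.07, padj = 8.9e-07) and -0.19 for Cd1d1 (SE 0.09, padj = 0.13), so that the calls of these genes were the same with divided reads.

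**Figure D4:**
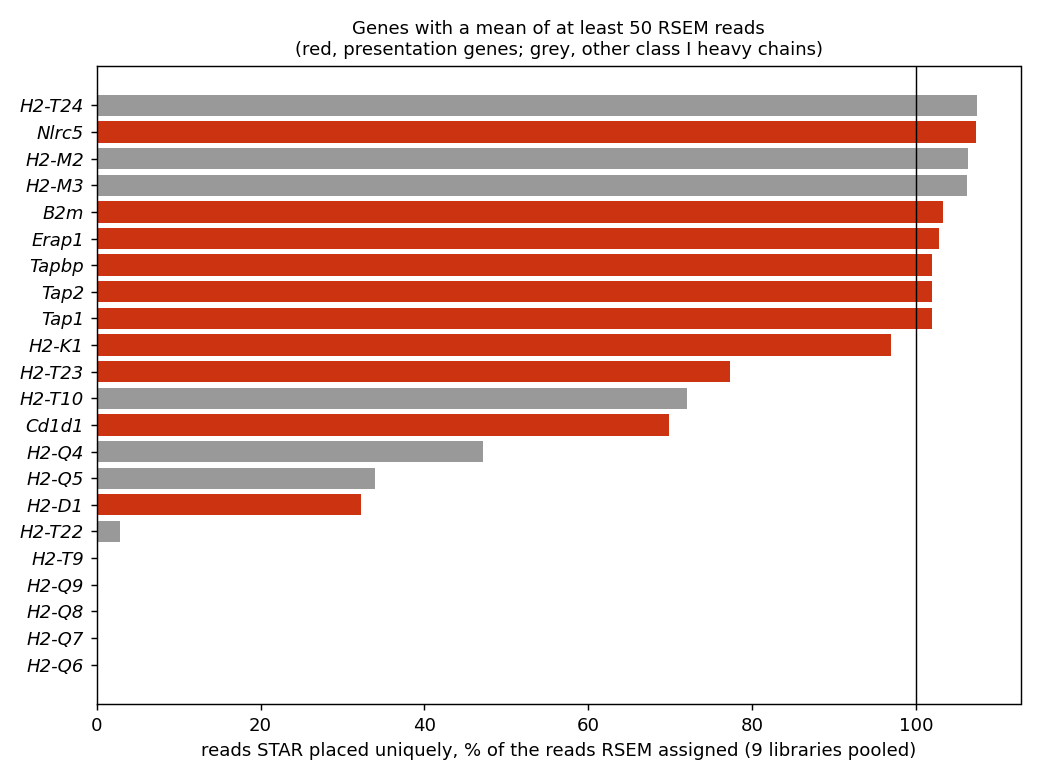
Reads that STAR placed uniquely and counted for a gene, as a percentage of the reads RSEM assigned (horizontal axis), pooled over 9 libraries. Shown are members and other class I heavy chains with a mean of at least 50 RSEM reads. Among members H2-D1 is lowest at 32.2%, and H2-Q6, H2-Q7, H2-Q8, H2-Q9 and H2-T9 have no counted read.

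The other class I heavy chains, a list of 19 genes, mostly followed the same direction. Of the 13 with enough reads, 8 were higher in adults (19.5% of all genes tested) and none was lower (21%). By both thresholds 7 were called higher (6.86%), and the median log2FC of the 13 was 1.55. Among those called, the largest were H2-M5, with a log2FC of 4.68 (SE 0.80) at no more than 1.45 TPM in any library, H2-Q5 with 2.61 (SE 0.16), H2-Q2 with 2.31 (SE 0.38) and H2-Q4 with 1.62 (SE 0.24). H2-T24 had a log2FC of 1.55 (SE 0.25) and H2-M2 of 1.28 (SE 0.24). H2-M3, which presents formylated peptides, was the most abundant of the 13 tested. It was at 138, 118 and 117 TPM in young TOM+ cDC2 and at 211, 216 and 208 TPM in adults (log2FC 0.93, SE 0.08, padj = 4.4e-06). H2-M5 has only a few reads in young libraries, and STAR counts were 47.1% of RSEM's reads for H2-Q4 and 34.0% for H2-Q5, pooled over libraries. The list depended on the counter. On RSEM's expected counts 18 were tested, 14 were higher, none was lower and 13 were called, with a median log2FC of 2.04. Of all 14532 genes in that fit 3001 were higher and 1040 called higher. H2-Q4 then had a log2FC of 2.28, and H2-T22 passed (1.05, padj = 0.0037), unlike with STAR counts (0.90, padj = 0.33).

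Qa-2 is encoded by the near-identical genes H2-Q6 to H2-Q9, which have no reads in STAR's counts and were not part of the test. Whether shared or ambiguous placement left them without counts was not tested. RSEM's divided reads of these genes cannot be assigned to one of them with certainty, so their sum was used. The summed level was 132, 108 and 86.3 TPM in young TOM+ cDC2, 141, 129 and 119 TPM in young TOM- DC2 and 736, 719 and 695 TPM in adults. Adults were far above both young groups, with a log2FC with age of 2.89 (SE 0.12, padj = 5.9e-08, 7.39-fold), larger than that of any of the 10 members. Between the young groups the log2FC was 0.21 (SE 0.12, padj = 0.66). This sum was formed after the read placement had been seen.

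The genes of peptide supply had smaller log2FC. Of the 5 genes of the immunoproteasome and its activator PA28, 4 were higher in adults, against 19.5% of all genes tested. The log2FC was 0.55 for Psmb9 (SE 0.08), 0.37 for Psmb10 (SE 0.08), 0.38 for Psme1 (SE 0.07) and 0.32 for Psme2 (SE 0.08). Psmb8, the most abundant, had a log2FC of -0.10 (SE 0.08, padj = 0.35). With library totals alone only 1 of these 5 was higher and 1 was lower, where 1828 of all 14452 genes tested were higher and 4790 lower. Among 8 genes of peptide loading and folding in the endoplasmic reticulum 1 was higher and 4 were lower, against 19.5% and 21% of all genes tested. Tapbpl, a homolog of tapasin that edits peptides and was named here after its values had been seen, was the one that rose (log2FC 0.99, SE 0.12, padj = 5.2e-05), and the abundant chaperones Hspa5 (-0.01, SE 0.13, padj = 0.94) and Calr (-0.26, SE 0.11, padj = 0.090) did not pass. The 4 lower genes, also named after their values had been seen, were Canx (-0.49, SE 0.09, padj = 0.00091), Pdia3 (-0.36, SE 0.10, padj = 0.013), Bcap31 (-0.28, SE 0.09, padj = 0.033) and Uggt1 (-0.24, SE 0.08, padj = 0.037).

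Of 7 peptidases other than Erap1 1 was higher in adults and 3 were lower, against 19.5% and 21% of all genes tested. The cytosolic peptidase Thop1 was called lower, with a log2FC of -1.20 (SE 0.17, padj = 0.00012), Blmh had -0.47 (SE 0.08, padj = 0.00059), and the abundant Nrd1 had 0.07 (SE 0.10, padj = 0.60). Of 5 genes used in cross-presentation, 3 were higher and 1 was lower, against the same shares of all genes tested. Cybb, a subunit of the phagocyte NADPH oxidase, had a log2FC of 0.33 (SE 0.10, padj = 0.016), and Wdfy4, which cDC1 need for cross-presentation, had -0.04 (SE 0.12, padj = 0.84).

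Regulators of class I transcription were 5 higher and 2 lower of 12, against 19.5% and 21% of all genes tested. Their median log2FC was 0.06. Irf1, a factor induced by interferon, had a log2FC of 0.98 (SE 0.10, padj = 9.6e-06). Ciita, the class II counterpart of Nlrc5, had -0.26 (SE 0.12, padj = 0.099) and did not pass. With library totals alone 4 of the 12 were higher and 4 lower, where 1828 of all 14452 genes tested were higher and 4790 lower.

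Of 5 other class I-like molecules tested, 1 was higher and 2 were lower, against 19.5% and 21% of all genes tested. Fcgrt, the neonatal Fc receptor, was called lower at 197, 198 and 211 TPM in young TOM+ cDC2 against 73.5, 70.9 and 93.7 TPM in adults (log2FC -1.23, SE 0.10, padj = 3.3e-06), and Hfe, an iron regulator, was higher (log2FC 0.60, SE 0.08, padj = 0.00014). Both pair with B2m. Of 4 genes that load lipids on CD1d, none was higher and 2 were lower, against the same shares of all genes tested. Psap, the precursor of the saposins, had a log2FC of -0.79 (SE 0.10, padj = 7.4e-05) and Gm2a, the GM2 activator, had 0.16 (SE 0.07, padj = 0.087). Without the replicate block no gene of these 8 other lists passed between the young groups, against 1.6% of all genes tested. With the block on the young libraries alone 2 heavy chains and 1 peptidase were higher in TOM- DC2. In that fit 1 gene was lower in each of the lists of class I-like molecules, immunoproteasome, regulators, cross-presentation and lipid loading. Of all genes tested in that fit 11.8% passed in either direction, so these few genes are a description and not a result about the pathway.

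**Figure D5:**
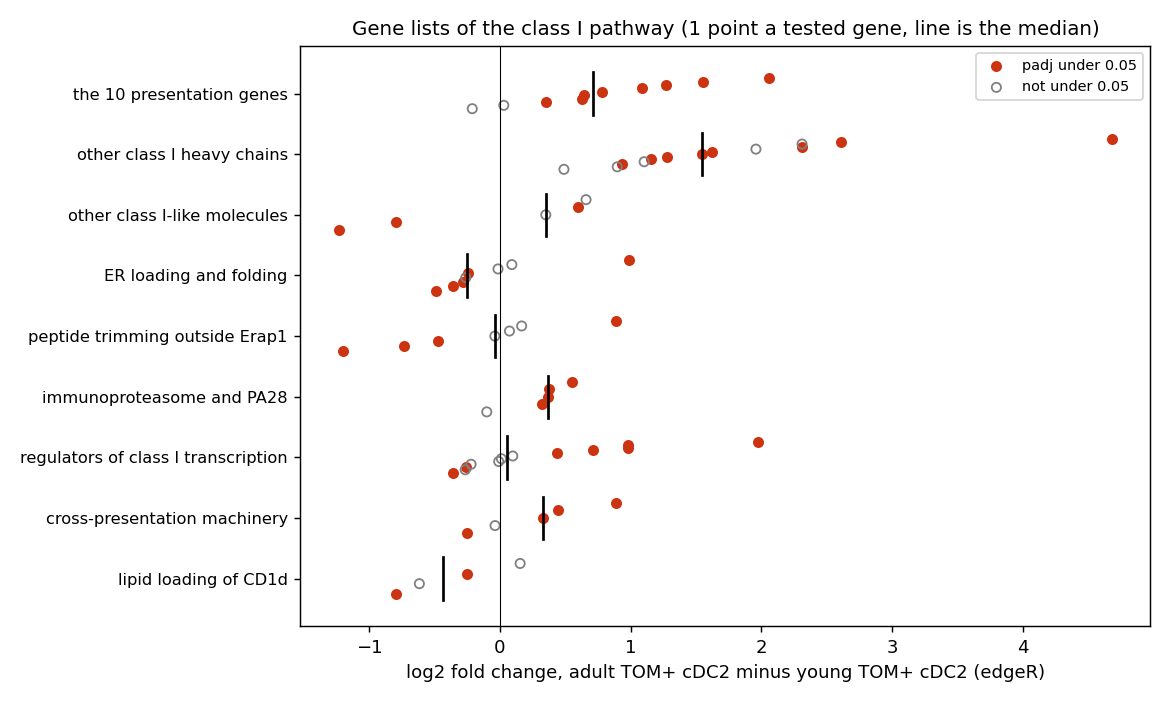
Log2 fold change with age from edgeR (horizontal axis) of every tested gene of the 10 presentation genes and 8 other lists of the pathway; filled points have a padj under 0.05, and the vertical line is the median of a list. The heavy chains lie to the right of 0 with a median of 1.55, the immunoproteasome genes have a median of 0.37, and the lipid-loading genes one of -0.43.

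The genes whose pattern over the 9 libraries was most like that of Nlrc5 included Irf7, Zbp1, AW112010 and H2-Ob. Likeness was measured as the mean absolute difference of log2(TPM + 1) after centring each gene, among 10112 genes averaging 50 or more counts, and these 4 differed from Nlrc5 by 0.0954 to 0.141. Irf7 was at a mean of 44.4 TPM in young TOM+ cDC2, 45.3 TPM in young TOM- DC2 and 170.3 TPM in adults, and H2-Ob, a class II gene, at 111, 125 and 349 TPM. Most like Tap1 were Fgr, Cmtr1, Adar, Sh3bp4 and Adap1, with differences of 0.0567 to 0.0682. Their patterns share libraries and depth with the members, and the likeness is a description.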

How the data were processed

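Gene expression was measured by mRNA sequencing of cDNA made with the SMART-seq v4 kit, which keeps no strand, in 9 libraries grouped by their labels. Per the labels the authors used STAR, RSEM and the build mm10, and the versions are not given in the sources used here. The deposited counts are STAR's reads per gene without normalization, of which the unstranded column was used. The deposited expected counts are RSEM's, which divide reads matching several genes, and were rounded for testing. The authors' TPM are relative to each library's total, and FPKM were not used. STAR's summary lines for unassigned reads, 26.1% to 31.6% of all reads, were left out.

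Differences were tested with edgeR 4.0.16 in R 4.3.3 (quasi-likelihood test, TMM, all 9 libraries, average count of at least 1, Benjamini-Hochberg over 14452 genes). Alternatives were DESeq2 1.42.0, limma 3.58.1 on log2(TPM + 1) and log2(TPM + 0.1), RSEM's expected counts, other scalings and filters, each library left out and a replicate block. Libraries of young mice with the same number in their deposited names correlated in their deviations from the group means (r = 0.746, 0.501 and 0.517 over 10112 genes), against at most 0.163 for different numbers. The sources used here do not state what the number means. Adult and young libraries of the same number had r from -0.00283 to 0.157. TMM factors were 0.894 to 0.928 in adults and 1.02 to 1.08 in young mice, and multimapping reads 10.4% to 10.8% and 12.7% to 13.4%. Ratios were compared with SciPy by an exact permutation test. The gene tests were tested on simulated data, where DESeq2 made more false calls than edgeR and limma and exceeded the limit first set, which was then relaxed for the alternatives, though not for edgeR.

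Members and lists were chosen with earlier results of these data known. Named are all members, in each other list every gene called in any comparison (at most 6) and the 2 most abundant, and the 5 genes most like Nlrc5 and Tap1; some genes of this rule are not reported here. Genes with shared reads are uncertain. Authors' comparison tables and single-cell data were not used.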

Additional observations from a re-analysis of the deposited data

How the results depend on the processing

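Across the alternatives the 8 members higher in adults kept that direction in both comparisons with adults, and each kept a padj under 0.05 except Tap2 with age under library totals alone (log2FC 0.16, padj = 0.15). Of 210 alternative values per comparison with adults, 201 with age and 205 against TOM- DC2 stayed on their side of the threshold with their direction. The count of members called by both thresholds was 3 or 4 of 10 in all alternatives with adults and 0 in all between young groups. The count passing padj between young groups was 1 with the replicate block on the young libraries alone (Tap1), and 0 otherwise. Cd1d1 with age passed with library totals alone (-0.41), with limma on log2(TPM + 1) (-0.34) and with limma on log2(TPM + 0.1) (-0.35). Erap1 changed sign with age under the same 3 settings (-0.17, -0.10 and -0.10), without young TOM+ replicate 3 (-0.0034) and without adult replicate 1 (-0.020, with a range of -0.020 to 0.11 over all libraries left out in turn), and against TOM- DC2 under the same 3 (-0.10, -0.034 and -0.035). Against TOM- DC2 it passed with the replicate block on all libraries (0.22, padj = 0.013) and with that block on RSEM's expected counts (0.26, padj = 0.0058), the latter chosen after seeing the data. The block changed no other call of a member. Between young groups values near 0 changed sign when 1 library was left out: B2m over a range of -0.14 to 0.055, H2-D1 of -0.097 to 0.029, H2-T23 of -0.021 to 0.039, Tapbp of -0.032 to 0.069 and Nlrc5 of -0.14 to 0.028. Levels from STAR counts per kilobase differed from TPM by more than 1 SD in 28 of 30 group means, most for H2-D1 (639 against 1630 TPM in young TOM+ cDC2). The cause of these changes was not tested, apart from the construction of each setting. With 3 libraries a group, small differences such as those between the young groups are measured with an SE of 0.07 to 0.13 on the log2 scale.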
